A study of Homo sapiens with 6 samples.

Results

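The genes described here belong to the hypoxia response and to glycolysis, and were measured in the human glioma cell line U87 after transfection with IL-33 constructs or an empty vector. The set was given as 37 gene symbols in 3 role groups. There were 16 glycolytic enzymes, 19 other targets of the hypoxia-inducible factors (HIF) and the 2 HIF α subunits HIF1A and EPAS1. A gene was measured where it was the only symbol of a probe set in the platform annotation, and of several such probe sets the brightest on average stood for it. By this rule 34 of the 37 genes were measured, among 18132 genes in all. All 16 glycolytic enzymes, 16 of the 19 other HIF targets and both α subunits were among them. SLC2A3 was found only on 5 probe sets shared with another gene, and SLC16A3 and CA9 were not analysed here. The genes were not chosen by rank on these arrays, but they were named after other results of the same arrays were known.

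In cells with enough oxygen, prolyl hydroxylases of the EGLN family mark the HIF α subunits for capture by the VHL ubiquitin ligase and for destruction. When oxygen falls, the α subunits are kept, pair with ARNT and bind a short core motif near genes for glucose uptake, glycolysis, blood vessel growth, pH control and mitochondrial turnover. HIF protein is thus set largely after translation, so the mRNA of an α subunit is not a measure of its activity. Gliomas use much glucose, and the same enzymes are switched on by HIF in the oxygen-poor parts of glioblastoma.

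The groups were 2 ΔNLS clones (3 and 4), 3 IL-33 clones (3, 5 and 9, values following the clone numbers) and 1 control, with 1 array each. IL-33 clones were stably transfected with full-length human IL-33, an IL-1 family cytokine which can also enter the nucleus and bind chromatin, while ΔNLS clones carried a mutant without the nuclear localization signal, a form that the study describes as secreted. The control carried the empty pcDNA3.1 vector. All cells were selected with G418 and grown in culture, and every IL-33 and ΔNLS array is 1 clone, so differences between clones are part of the spread. An array reads the RNA of many cells together, and fewer cells that express a gene cannot be told apart from less RNA per cell. The labels do not say whether RNA came from separate cultures. So the p-values reflect no more than the spread among the clones, which was also assumed for the single control. All levels are log2 values per gene, and each difference is a log2 difference with its standard error (SE). A gene is said to have risen or fallen where the adjusted p of the limma fit over all 18132 genes was under 0.05.

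Values that concern the whole series were as follows. IL33 was at 6.50 and 6.62 in ΔNLS clones 3 and 4, at 8.38, 6.40 and 9.50 in the 3 IL-33 clones (in the order 3, 5, 9), and at 3.46 in the control, below the background level of 4.80. Even this transfected gene did not pass the test against the control. Its difference was 4.63 ± 1.07 in IL-33 clones (adjusted p = 0.0575) and 3.10 ± 1.13 in ΔNLS clones (adjusted p = 0.0774). Of 10 glioma and astroglial markers 7 lay above background on all arrays, among them VIM at 13.71 to 13.94, whereas S100B lay below it on all arrays. Of 6 leukocyte markers 1, CD68, lay above background on all arrays, and PTPRC was at 2.14 to 2.25. The ΔNLS arrays stood apart in their distribution of values. Sorted values differed by 0.0273 on average between the ΔNLS arrays and by 0.00837 to 0.023 among the IL-33 and control arrays, but by 0.154 to 0.161 between a ΔNLS array and any of those. This set of arrays and the ΔNLS construct cannot be told apart. After quantile normalization of all arrays together, 13 members fell in IL-33 clones against control, 10 fell in ΔNLS clones against control, and 11 were higher in ΔNLS than in IL-33 clones.

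Against the control, 12 of the 34 genes measured fell in the IL-33 clones, 0 rose (2 at an unadjusted p under 0.05) and 22 did not pass the test, where 4.0% of all genes fell and 3.65% rose. The difference was below 0 for 31 genes, with a median of -0.76 against 0.04 over all genes. All 3 IL-33 clones lay below the control for 28 of the 34, a pattern found in 27.6% of all genes. In the ΔNLS clones 8 genes fell, 0 rose (0 also at an unadjusted p under 0.05) and 26 did not pass, but there 23.5% of all genes fell and 14.8% rose, and the share of the set that fell was not above that of all genes. The median difference was -0.33 against -0.09 over all genes, and both ΔNLS clones lay below the control for 23 genes, a pattern found in 51.4% of all genes. Set against the IL-33 clones, the ΔNLS clones had 13 genes higher, 3 lower and 18 that did not pass, where 16.1% of all genes were higher and 31.4% lower. The median of this difference was 0.44 against -0.13 over all genes. Both ΔNLS clones lay above all 3 IL-33 clones for 20 genes, a pattern found in 25.4% of all genes. The comparisons with the control share its single array, so each is given by its own values.

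**Figure D1:**
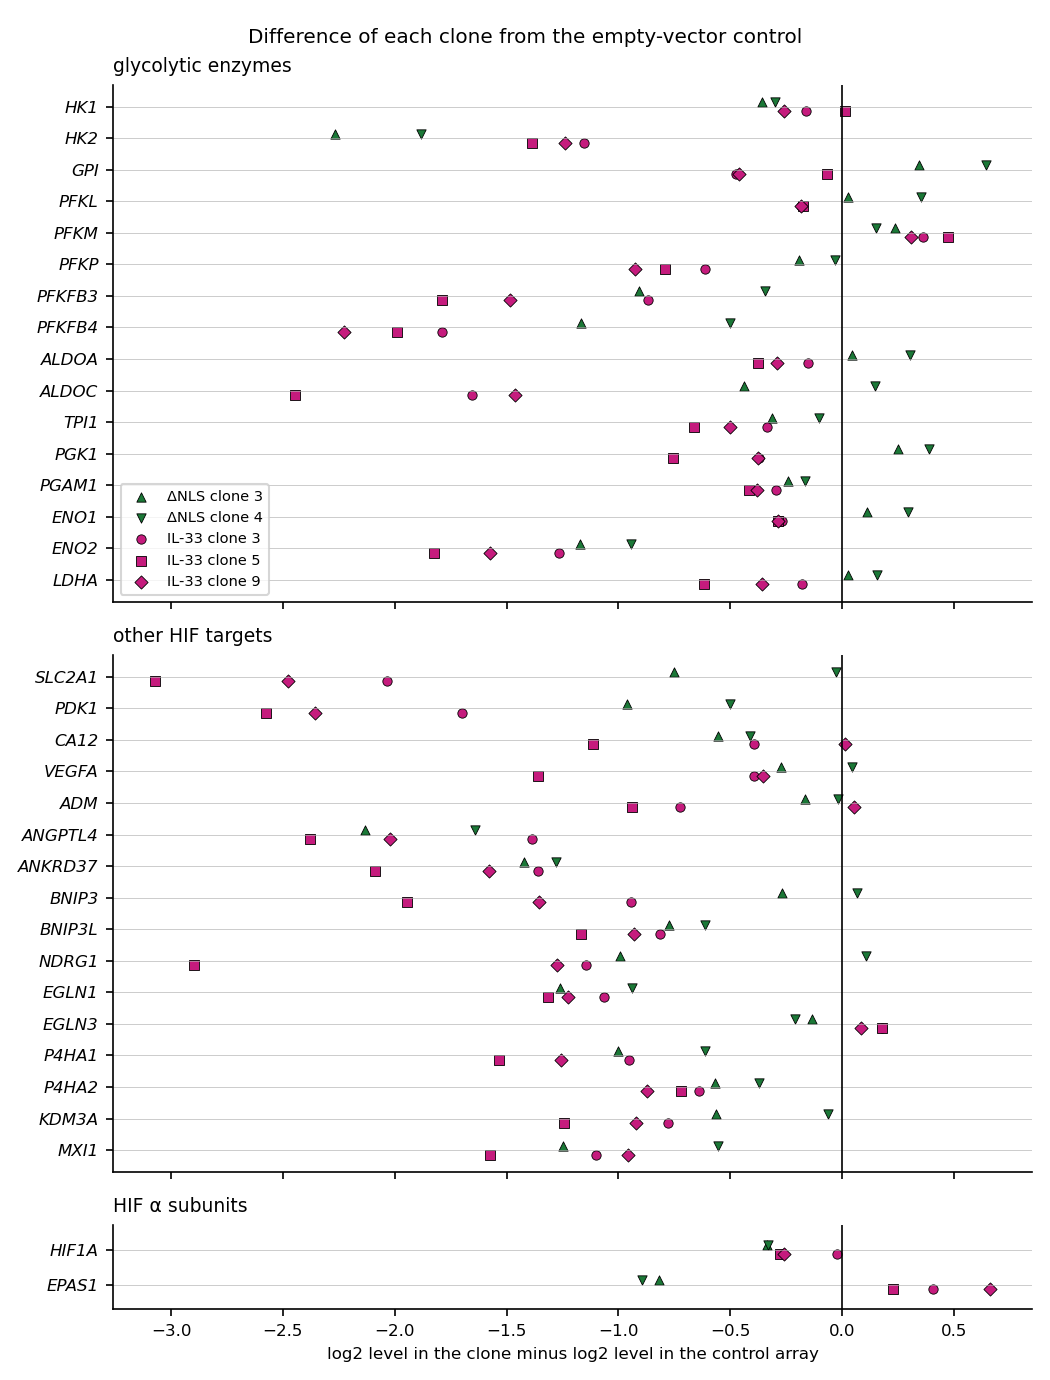
Log2 level of each clone minus that of the single control array (x axis) for the 34 measured genes (rows), by role group. Green triangles are ΔNLS clones and magenta points IL-33 clones. For 28 genes all 3 IL-33 clones lie left of the control line, while both ΔNLS clones do so for 23.

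The test against the control depended on which arrays entered the fit. Among the IL-33 clones 0 members passed when the fit held only the IL-33 and control arrays, when ΔNLS clone 3 or 4 was left out, when IL-33 clone 9 was left out, or when values below background were raised to it, although 19 to 21 members then still had differences below 0 at an unadjusted p under 0.05. With the ΔNLS arrays left out, whether both or either of them, 0 of all 18132 genes passed (smallest adjusted p 0.0655 to 0.068). Without IL-33 clone 9, 149 of all genes rose and 192 fell, and with values raised to background 276 rose and 416 fell, against 661 and 726 in the fit reported. Without ΔNLS clone 3 or 4 the number lower in ΔNLS clones against control was 2 (HK2 and EGLN1), and the number higher in ΔNLS than in IL-33 clones was 5 without ΔNLS clone 3 and 1 (ENO1) without ΔNLS clone 4.

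Glycolysis begins with the hexokinases, which trap glucose as glucose 6-phosphate. HK2, the inducible form that HIF switches on, was at 7.44 and 7.82 in ΔNLS clones, 8.55, 8.32 and 8.47 in IL-33 clones and 9.71 in the control. The groups did not overlap, and HK2 was the only enzyme that passed the test as lower in ΔNLS than in IL-33 clones. It fell in ΔNLS clones against control (-2.08 ± 0.19, adjusted p = 0.00221) and in IL-33 clones against control (-1.26 ± 0.18, adjusted p = 0.0211). The difference between the constructs, ΔNLS minus IL-33, was -0.82 ± 0.15 (adjusted p = 0.00705, or 0.0533 without ΔNLS clone 3). HK1, the form found in most tissues, ranged from 11.66 to 12.03 over all arrays and passed in none of the comparisons.

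The next steps lead to fructose 1,6-bisphosphate. GPI, the isomerase that turns glucose 6-phosphate into fructose 6-phosphate, was at 10.85 and 11.15 in ΔNLS clones, 10.03, 10.44 and 10.04 in IL-33 clones and 10.50 in the control, so that the constructs lay on opposite sides of the control (ΔNLS minus IL-33 0.83 ± 0.16, adjusted p = 0.00976). Of the phosphofructokinase subunits, which carry the committed step, PFKP fell in the IL-33 clones. It was at 10.79 and 10.95 in ΔNLS clones, 10.36, 10.19 and 10.05 in IL-33 clones and 10.98 in the control (IL-33 minus control -0.78 ± 0.15, adjusted p = 0.0367; ΔNLS minus IL-33 0.66 ± 0.12, adjusted p = 0.00662). PFKL, the liver form, was higher in ΔNLS than in IL-33 clones by 0.37 ± 0.12 (adjusted p = 0.0479), but this call was lost without any 1 of the IL-33 clones and with all of its probe sets averaged. PFKM, the muscle form, was the only enzyme whose difference from control was above 0 in the IL-33 clones, at 0.38 ± 0.12 (adjusted p = 0.103).

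PFKFB3 and PFKFB4 make fructose 2,6-bisphosphate, the activator of phosphofructokinase, and both are known HIF targets. PFKFB4 had the largest difference from control of all 16 enzymes in the IL-33 clones. It was at 9.07 and 9.73 in ΔNLS clones, 8.45, 8.25 and 8.01 in IL-33 clones and 10.24 in the control, and the 3 groups did not overlap. It fell in the IL-33 clones (-2.002 ± 0.29, adjusted p = 0.0204) and was higher by 1.17 ± 0.23 in ΔNLS than in IL-33 clones (adjusted p = 0.00963). Its difference of ΔNLS clones from control, -0.84 ± 0.31, did not pass (adjusted p = 0.0774). PFKFB3 had differences of -1.38 ± 0.38 in IL-33 clones and -0.62 ± 0.40 in ΔNLS clones, and neither passed (adjusted p = 0.0851 and 0.264).

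In the lower part of the pathway the constructs differed most for ALDOC, the aldolase of the brain. ALDOC was at 9.25 and 9.84 in ΔNLS clones, 8.04, 7.25 and 8.23 in IL-33 clones and 9.69 in the control. On the probe set used, the ΔNLS clones lay on both sides of the control and the IL-33 clones all below it. Over its 5 probe sets ΔNLS minus control ranged from -0.15 to 0.94, with 4 above 0. IL-33 minus control ranged from -1.90 to -0.72. ALDOC was 3.27-fold higher in ΔNLS than in IL-33 clones (1.71 ± 0.33, adjusted p = 0.00926), whereas its difference of IL-33 clones from control, -1.85 ± 0.42, did not pass (adjusted p = 0.055). PGK1, which makes ATP from 1,3-bisphosphoglycerate, was at 12.87 and 13.01 in ΔNLS clones, 12.25, 11.87 and 12.25 in IL-33 clones and 12.63 in the control. Both ΔNLS clones were above the control and all 3 IL-33 clones below it. The same held for ALDOA, the main aldolase of most tissues, for ENO1, the ubiquitous enolase, and for LDHA, which turns pyruvate into lactate. ΔNLS clones were higher than IL-33 clones by 0.82 ± 0.14 for PGK1 (adjusted p = 0.00562), 0.48 ± 0.07 for ENO1 (adjusted p = 0.00408), 0.48 ± 0.13 for LDHA (adjusted p = 0.0288) and 0.45 ± 0.10 for ALDOA (adjusted p = 0.0172). None of these 4 passed against the control in either comparison, and the calls of LDHA and ALDOA were lost after quantile normalization and without IL-33 clone 9.

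ENO2, the neuronal enolase, behaved otherwise. It was at 9.05 and 9.28 in ΔNLS clones, 8.96, 8.40 and 8.65 in IL-33 clones and 10.22 in the control. It fell in ΔNLS clones (-1.06 ± 0.24, adjusted p = 0.0198) and in IL-33 clones (-1.55 ± 0.23, adjusted p = 0.0212), and the difference between the constructs, 0.50 ± 0.18, did not pass (adjusted p = 0.0657). TPI1, the triose phosphate isomerase, and PGAM1, a phosphoglycerate mutase, passed in none of the comparisons. All 5 clones of both lay below the control on the probe set used, but other probe sets differed. Over all of them ΔNLS minus control ranged from -0.27 to 0.20 for TPI1 and from -0.20 to 0.19 for PGAM1. ΔNLS minus IL-33 was above 0 on each, at 0.11 to 0.79 for TPI1 and 0.16 to 0.75 for PGAM1. Counted over the 16 enzymes, 4 fell in IL-33 clones against control (HK2, PFKP, PFKFB4 and ENO2), where 4.0% of all genes fell. In ΔNLS clones 2 fell against control (HK2 and ENO2), a share not above the 23.5% of all genes. In ΔNLS against IL-33 clones 9 were higher and 1 lower, where 16.1% of all genes were higher and 31.4% lower. The medians of the enzymes were -0.44 for IL-33 minus control, -0.13 for ΔNLS minus control and 0.48 for ΔNLS minus IL-33. Over all genes these medians were 0.04, -0.09 and -0.13.

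**Figure D2:**
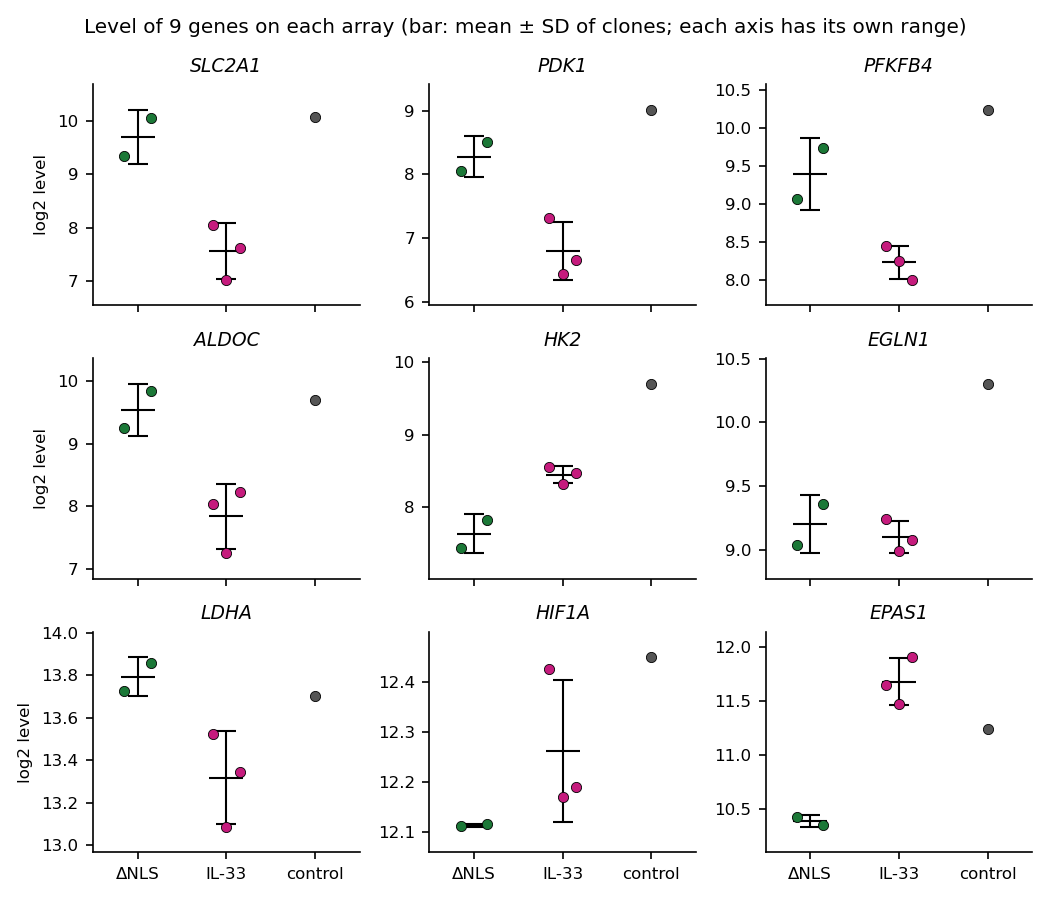
Log2 level of 9 genes (y axis, a separate range in each panel) in the ΔNLS clones, the IL-33 clones and the control. Each point is 1 array, and bars are the mean ± SD of the clones. SLC2A1 lies at 7.02 to 8.05 in the IL-33 clones, below both ΔNLS clones (9.34 and 10.06) and the control (10.09), while HK2 and EPAS1 are lowest in the ΔNLS clones.

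The other HIF targets include the gene that differed most. SLC2A1, the glucose transporter GLUT1, was at 9.34 and 10.06 in ΔNLS clones, 8.05, 7.02 and 7.61 in IL-33 clones and 10.09 in the control. One of the ΔNLS clones was level with the control, and all IL-33 clones were far below. SLC2A1 fell 5.77-fold in the IL-33 clones (-2.53 ± 0.44, adjusted p = 0.0312) and was 4.41-fold higher in ΔNLS than in IL-33 clones (2.14 ± 0.35, adjusted p = 0.00539, or 0.0833 without ΔNLS clone 4). Its difference of ΔNLS clones from control was -0.39 ± 0.47 (adjusted p = 0.539).

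PDK1, the kinase that shuts pyruvate dehydrogenase and so keeps pyruvate out of the mitochondrion, had the second largest difference. It was at 8.05 and 8.51 in ΔNLS clones, 7.31, 6.44 and 6.66 in IL-33 clones and 9.01 in the control, without overlap between the groups. It fell by 2.21 ± 0.36 in the IL-33 clones (adjusted p = 0.0274) and was higher by 1.48 ± 0.29 in ΔNLS than in IL-33 clones (adjusted p = 0.00928). Its difference of ΔNLS clones from control did not pass (-0.73 ± 0.38, adjusted p = 0.18). BNIP3, a receptor for the removal of mitochondria, was at 12.09 and 12.43 in ΔNLS clones, 11.42, 10.42 and 11.004 in IL-33 clones and 12.36 in the control. It was higher in ΔNLS than in IL-33 clones by 1.31 ± 0.29 (adjusted p = 0.0141), although its other probe set, near background with a mean of 4.85, gave a difference of -0.05. KDM3A, a histone demethylase, was likewise higher in ΔNLS than in IL-33 clones by 0.67 ± 0.20 (adjusted p = 0.0387). This call was lost without IL-33 clone 5 or 9, with all of its probe sets averaged and with values below background raised to it. Over its 3 probe sets the difference ranged from 0.11 to 0.67.

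A further group of targets was low with both constructs. ANGPTL4, an inhibitor of lipoprotein lipase, was at 5.89 and 6.38 in ΔNLS clones, 6.63, 5.64 and 5.999 in IL-33 clones and 8.02 in the control. It fell in ΔNLS clones (-1.89 ± 0.42, adjusted p = 0.0179) and in IL-33 clones (-1.93 ± 0.39, adjusted p = 0.0432). EGLN1, the main oxygen-sensing prolyl hydroxylase and itself a HIF target, was at 9.04 and 9.36 in ΔNLS clones, 9.24, 8.99 and 9.08 in IL-33 clones and 10.30 in the control. The constructs overlapped, and both lay below the control (-1.10 ± 0.18 in ΔNLS clones, adjusted p = 0.00749; -1.20 ± 0.17 in IL-33 clones, adjusted p = 0.0196). BNIP3L, the close relative of BNIP3, fell in ΔNLS clones (-0.69 ± 0.17, adjusted p = 0.023) and in IL-33 clones (-0.97 ± 0.16, adjusted p = 0.0269). The probe set used for BNIP3L had the largest falls of its 6. Over the 6 the difference ranged from -0.69 to -0.28 in ΔNLS clones and from -0.97 to -0.78 in IL-33 clones. Both calls were lost with all of its probe sets averaged. P4HA2, a subunit of the collagen prolyl hydroxylase, fell in ΔNLS clones (-0.47 ± 0.14, adjusted p = 0.0415) and in IL-33 clones (-0.74 ± 0.13, adjusted p = 0.0311). For P4HA1, the other such subunit, the fall in IL-33 clones passed (-1.25 ± 0.25, adjusted p = 0.0435), and the difference in ΔNLS clones did not (-0.81 ± 0.27, adjusted p = 0.0609).

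ANKRD37, a small ankyrin repeat protein gene that is strongly induced in hypoxia, was at 6.90 and 7.04 in ΔNLS clones, 6.96, 6.23 and 6.74 in IL-33 clones and 8.32 in the control. It fell in ΔNLS clones (-1.35 ± 0.30, adjusted p = 0.0174) and in IL-33 clones (-1.68 ± 0.28, adjusted p = 0.0286). It lies on chromosome 4, whose genes as a whole were lower than in the control, with medians of -0.73 and -0.81 in ΔNLS clones and -0.36 to -0.54 in IL-33 clones. With the genes of each chromosome centred, the call of ANKRD37 in ΔNLS clones was lost, and that in IL-33 clones was not. The part that chromosome copy number had in these values was not tested.

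The remaining targets did not pass against the control. NDRG1, a stress-responsive gene often used as a hypoxia marker, had the widest spread, at 10.01 and 11.11 in ΔNLS clones, 9.86, 8.10 and 9.73 in IL-33 clones and 11.002 in the control, and its difference of -1.77 ± 0.76 in IL-33 clones did not pass (adjusted p = 0.214), with all 3 IL-33 clones below the control. VEGFA, the main angiogenic factor, had differences of -0.11 ± 0.43 in ΔNLS clones and -0.70 ± 0.41 in IL-33 clones, with adjusted p of 0.852 and 0.35. ADM, a vasodilator peptide, CA12, a carbonic anhydrase, and MXI1, an antagonist of MYC, passed in none of the comparisons. EGLN3, another prolyl hydroxylase, lay below background on every array, at 2.61 to 3.00, so its lower value in ΔNLS than in IL-33 clones (-0.32 ± 0.07, adjusted p = 0.0172) is a difference within the background range. Over the 16 targets measured, 8 fell in IL-33 clones and 5 in ΔNLS clones against control, where 4.0% and 23.5% of all genes fell. In ΔNLS against IL-33 clones 4 were higher and 1 lower, where 16.1% of all genes were higher and 31.4% lower. The medians of these targets were -1.21 for IL-33 minus control, -0.48 for ΔNLS minus control and 0.38 for ΔNLS minus IL-33. Over all genes these medians were 0.04, -0.09 and -0.13.

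**Figure D3:**
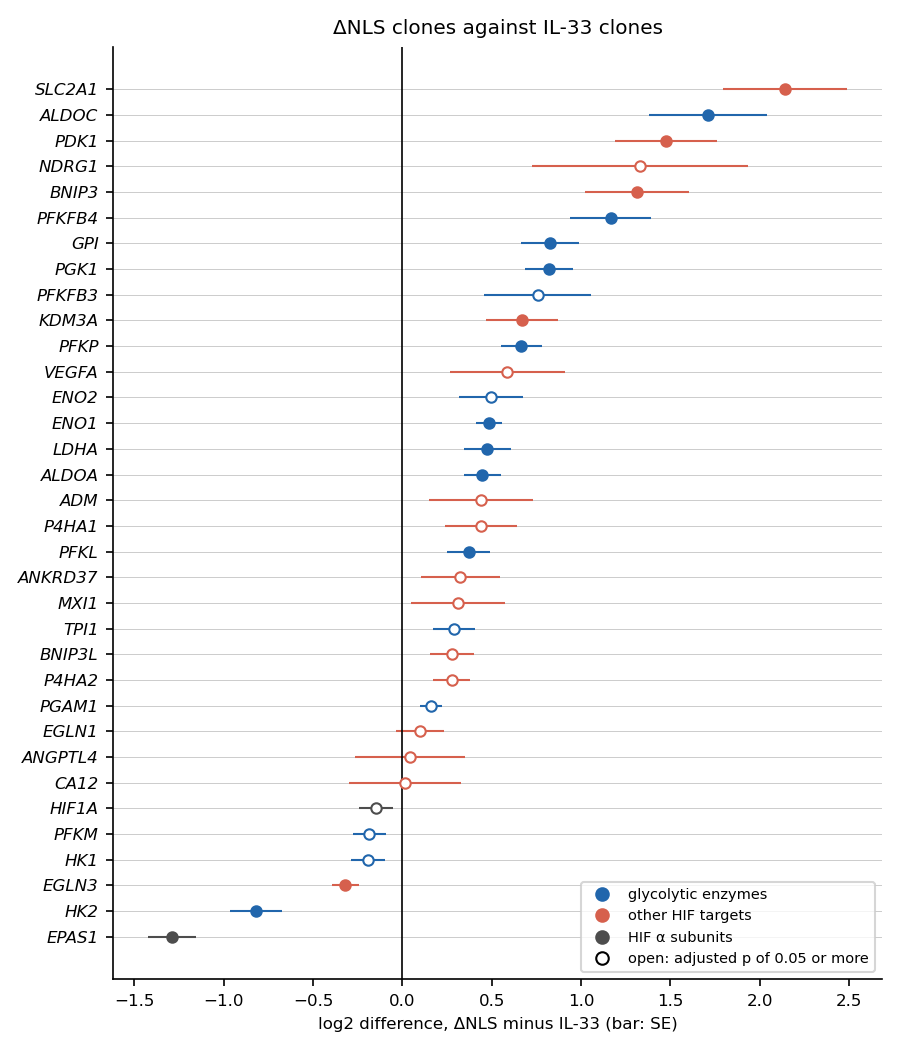
Log2 difference of ΔNLS minus IL-33 clones for each measured gene (x axis), sorted, with bars of 1 SE. Filled points passed the test at an adjusted p under 0.05. SLC2A1 (2.14), ALDOC (1.71) and PDK1 (1.48) lie at the top and EPAS1 (-1.29) at the bottom.

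The α subunits differed from each other. HIF1A was at 12.11 and 12.12 in ΔNLS clones, 12.43, 12.17 and 12.19 in IL-33 clones and 12.45 in the control. All 5 clones lay below the control, and it passed in none of the comparisons (ΔNLS minus control -0.33 ± 0.13, adjusted p = 0.0822; IL-33 minus control -0.19 ± 0.12, adjusted p = 0.391). Genes of its chromosome, 14, had medians of -0.39 and -0.45 in ΔNLS clones and -0.28 to -0.37 in IL-33 clones. This is at least as large as the mean differences of HIF1A on the probe set used, which had the smallest falls of its 8. Over the 8 the difference ranged from -0.76 to -0.33 in ΔNLS clones and from -0.60 to -0.19 in IL-33 clones, so other probe sets exceeded these medians. EPAS1, which encodes HIF-2α, was at 10.43 and 10.35 in ΔNLS clones, 11.66, 11.48 and 11.91 in IL-33 clones and 11.25 in the control. The constructs lay on opposite sides of the control. EPAS1 fell by 0.86 ± 0.18 in ΔNLS clones against control (adjusted p = 0.0156) and was 2.44-fold lower in ΔNLS than in IL-33 clones (-1.29 ± 0.13, adjusted p = 0.00164), a call kept in all 14 alternative fits. Its difference of 0.43 ± 0.17 in IL-33 clones did not pass (adjusted p = 0.178). Genes of chromosome 2, which holds EPAS1 and also HK2, PDK1 and KDM3A, had medians of -0.27 and -0.31 in ΔNLS clones and -0.09 to -0.13 in IL-33 clones.

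The HIF machinery was read from a list of partners, cofactors and ligase parts, 14 of them measured. In the IL-33 clones 1 rose and 0 fell, where 3.65% of all genes rose and 4.0% fell. At an unadjusted p under 0.05, 3 of the 14 had lower values. The one that rose was VHL, the substrate receptor of the ligase, at 8.13 and 8.22 in ΔNLS clones, 8.57, 8.53 and 8.81 in IL-33 clones and 7.87 in the control (IL-33 minus control 0.77 ± 0.15, adjusted p = 0.0385), a call lost without IL-33 clone 3 too. In ΔNLS clones against control 3 rose and 2 fell, where 14.8% of all genes rose and 23.5% fell. CITED2, which competes with HIF for the coactivator p300, rose by 1.12 ± 0.23 (adjusted p = 0.0146), and EP300, the gene of p300, fell by 1.06 ± 0.12 (adjusted p = 0.00321). HIF3A, an α subunit that can act as an inhibitor, was at 4.63 and 4.50 in ΔNLS clones, below background, against 5.88, 5.88 and 5.85 in IL-33 clones and 5.87 in the control. The medians of this list were -0.06 for ΔNLS minus control and 0.00 for IL-33 minus control.

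The clones of a construct differed from each other in a shared way over the set. IL-33 clone 5 was the lowest of the 3 IL-33 clones for 26 of the 34 genes, against 30.4% of all genes, and lay below the mean of clones 3 and 9 by a median of -0.33 (0.01 over all genes). It was lowest for 14 of the 16 other HIF targets and for 10 of the 16 enzymes. ΔNLS clone 4 was above ΔNLS clone 3 for 31 of the 34 genes, against 50.3% of all genes, by a median of 0.24 (0.00 over all genes). The median difference of the enzymes from control was -0.22 and 0.06 in ΔNLS clones 3 and 4 and -0.35, -0.64 and -0.42 in the IL-33 clones. For the other HIF targets it was -0.76 and -0.39 in the ΔNLS clones and -0.95, -1.45 and -1.09 in the IL-33 clones. Of 10 markers of glioma and astroglial cells, clone 5 was the lowest IL-33 clone for 6, the highest for 3 (VIM, NES and SOX2) and neither for GFAP. The widest gaps were those of CHI3L1 and SOX9, with CHI3L1 at 4.87 and SOX9 at 5.18, against 9.49 and 9.64 (CHI3L1) and 7.66 and 6.83 (SOX9) in IL-33 clones 3 and 9. It had the lowest IL33 of its construct, at 6.40. The part of these differences in the values of the set was not tested. Without clone 5, 14 members fell in IL-33 clones against control.

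Other genes of the same pathways were read from lists of textbook members. Of 37 further HIF targets measured, 14 fell and 2 rose in IL-33 clones against control, where 4.0% of all genes fell and 3.65% rose. In ΔNLS clones 14 fell and 5 rose against control, where 23.5% of all genes fell and 14.8% rose. In ΔNLS against IL-33 clones 10 were higher and 6 lower, where 16.1% of all genes were higher and 31.4% lower. HILPDA, a lipid droplet protein, was at 7.78 and 7.94 in ΔNLS clones, 7.59, 7.35 and 7.62 in IL-33 clones and 9.47 in the control, and it fell in ΔNLS clones (-1.61 ± 0.16, adjusted p = 0.0025) and in IL-33 clones (-1.96 ± 0.15, adjusted p = 0.00532). INSIG2, which holds back sterol synthesis, fell in ΔNLS clones (-1.64 ± 0.22, adjusted p = 0.00437) and in IL-33 clones (-1.87 ± 0.20, adjusted p = 0.0111). GBE1, the glycogen branching enzyme, was at 10.06 and 10.27 in ΔNLS clones, 9.32, 9.22 and 9.19 in IL-33 clones and 10.14 in the control. It was higher in ΔNLS than in IL-33 clones by 0.92 ± 0.10 (adjusted p = 0.00182), and its difference of ΔNLS clones from control was 0.02 ± 0.13. Against this direction, SLC6A8, the creatine transporter, rose by 1.57 ± 0.19 in ΔNLS clones (adjusted p = 0.00378) and by 1.22 ± 0.18 in IL-33 clones (adjusted p = 0.0219). The medians of the list were -0.42 for ΔNLS minus control, -0.78 for IL-33 minus control and 0.34 for ΔNLS minus IL-33.

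Of 20 further glycolysis genes measured, of which 6 lay below background on every array, 1 fell and 0 rose in IL-33 clones (2 had higher values at an unadjusted p under 0.05), and 7 fell and 4 rose in ΔNLS clones, each against control. The 1 that fell in IL-33 clones and 4 of the 7 that fell in ΔNLS clones were among those below background. Of all genes, 4.0% fell and 3.65% rose in IL-33 clones, and 23.5% fell and 14.8% rose in ΔNLS clones. PKM, a pyruvate kinase gene, was at 11.35 and 11.22 in ΔNLS clones, 12.61, 12.41 and 12.58 in IL-33 clones and 12.61 in the control. The ΔNLS clones were below all other arrays, and PKM fell in them against control (-1.32 ± 0.12, adjusted p = 0.00201). In ΔNLS against IL-33 clones, 7 of the 20 were higher and 9 lower, where 16.1% of all genes were higher and 31.4% lower, and 5 of the 9 were below background on every array. PKM was among those that were lower (-1.25 ± 0.09, adjusted p = 0.000882). Of 13 genes of pyruvate and lactate handling, 1 rose in IL-33 clones, where 3.65% of all genes rose. In ΔNLS clones 3 rose and 2 fell, where 14.8% of all genes rose and 23.5% fell. The riser in IL-33 clones was PDP1, a phosphatase that reverses the action of PDK1. It was at 9.39 and 9.19 in ΔNLS clones, 8.80, 9.30 and 9.15 in IL-33 clones and 7.85 in the control (1.44 ± 0.22 in ΔNLS clones, adjusted p = 0.00656; 1.23 ± 0.21 in IL-33 clones, adjusted p = 0.03). PDK2, another kinase of pyruvate dehydrogenase, rose by 1.17 ± 0.14 in ΔNLS clones (adjusted p = 0.00352), and its difference of 0.38 ± 0.13 in IL-33 clones did not pass (adjusted p = 0.135).

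**Figure D4:**
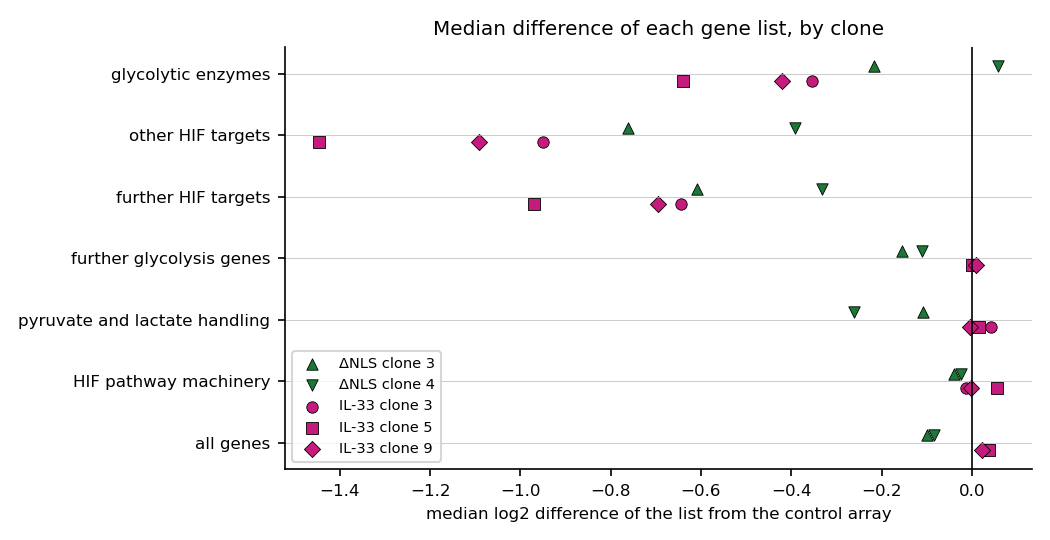
Median log2 difference from the control array (x axis) of each gene list (rows) in each clone. Green triangles are ΔNLS clones and magenta points IL-33 clones. The other HIF targets are lowest in IL-33 clone 5 (-1.45), and the further glycolysis genes lie near 0 in the IL-33 clones.

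Several probe sets read most of the genes, and those above background gave a check on the choice of 1 per gene. Over the set there were 109 such probe sets, and 25 genes had several. Probe sets of a gene are not independent readings, and the same counts were not made over all genes. For IL-33 minus control 106 of the 109 differences were below 0, and all 25 genes had theirs in 1 direction. For ΔNLS minus control 81 were below 0, and for ΔNLS minus IL-33 87 were above 0, with 17 of the 25 genes in 1 direction in each. For VEGFA, the gene with most of them, the 10 probe sets ranged from -1.09 to -0.60 for IL-33 minus control. They spread more widely for ΔNLS minus control, from -1.19 to 0.14 with 9 below 0. For ΔNLS minus IL-33 they ranged from -0.10 to 0.80, with 8 above 0.

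The promoters were searched for the HIF core motif, as ACGTG or GCGTG on either strand, in RefSeq windows (GRCh38.p14) of 300 bases, running from 250 before to 50 after each gene start. Of the 34 measured genes 31 had a window, and BNIP3L, NDRG1 and VEGFA did not. A core was present in 22 of the 31 (71.0%), against 56.5% of the promoters of all genes tested and 48.4% of all promoters in the table. The windows of the set also had more G and C, at a median of 69.7% against 63.0% and 58.3%. ACGTG alone was present in 12 of the 31 (38.7%), against 23.9% and 21.6%. It overlaps the E-box CACGTG, which 4 of the 31 held (12.9%, against 8.82% and 7.43%). The core was present in 8 of 11 windows of genes that fell in IL-33 clones (72.7%) and in 14 of 20 of those that did not pass (70.0%). ACGTG alone was present in 6 of these 11 and in 6 of these 20, a difference that was not tested. PDK1, with the second largest fall, had 0 cores in its window, which held 36.3% G and C. Each gene had a single window, and cores outside it or near other gene starts were not looked for.

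The 6 windows with 3 or more cores, counted over both strands, are shown because they lie next to genes that did not all move alike. They are given 5′ to 3′ on the strand of the gene, and capitals mark the cores, on either strand. A CACGTG holds ACGTG on each strand and was counted once for each, so its cores overlap in the capitals. This was so in ALDOC, ANKRD37, BNIP3 and LDHA, and ANKRD37 reached 3 cores only by this count. The ALDOC window is chr17:28576846-28577145 on the minus strand. The ANKRD37 window is chr4:185396591-185396890 on the plus strand. The BNIP3 window is chr10:131981874-131982173 on the minus strand. The HK2 window is chr2:74833877-74834176 on the plus strand. The LDHA window is chr11:18394313-18394612 on the plus strand. The PGK1 window is chrX:78103998-78104297 on the plus strand.
ALDOC: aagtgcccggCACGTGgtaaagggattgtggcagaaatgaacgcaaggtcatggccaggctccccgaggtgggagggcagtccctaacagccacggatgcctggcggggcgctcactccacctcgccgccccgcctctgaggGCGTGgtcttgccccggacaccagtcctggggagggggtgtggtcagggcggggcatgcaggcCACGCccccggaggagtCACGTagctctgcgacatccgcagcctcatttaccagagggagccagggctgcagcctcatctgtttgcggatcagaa
ANKRD37: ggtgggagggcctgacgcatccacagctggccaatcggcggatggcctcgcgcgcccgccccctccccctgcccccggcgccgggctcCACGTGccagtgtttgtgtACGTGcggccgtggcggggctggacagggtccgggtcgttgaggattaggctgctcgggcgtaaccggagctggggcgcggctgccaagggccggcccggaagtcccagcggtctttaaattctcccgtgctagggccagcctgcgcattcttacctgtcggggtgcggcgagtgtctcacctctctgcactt
BNIP3: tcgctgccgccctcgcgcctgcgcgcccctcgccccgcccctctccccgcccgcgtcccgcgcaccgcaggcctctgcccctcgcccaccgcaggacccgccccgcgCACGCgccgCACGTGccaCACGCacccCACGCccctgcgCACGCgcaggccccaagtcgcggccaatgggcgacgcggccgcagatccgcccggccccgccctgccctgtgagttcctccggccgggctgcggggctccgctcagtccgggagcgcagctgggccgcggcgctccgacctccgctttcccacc
HK2: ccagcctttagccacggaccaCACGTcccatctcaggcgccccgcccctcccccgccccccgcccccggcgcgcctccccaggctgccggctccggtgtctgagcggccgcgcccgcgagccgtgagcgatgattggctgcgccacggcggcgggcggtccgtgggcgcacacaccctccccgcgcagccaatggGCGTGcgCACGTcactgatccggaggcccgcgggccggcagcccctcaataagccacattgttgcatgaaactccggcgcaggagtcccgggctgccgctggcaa
LDHA: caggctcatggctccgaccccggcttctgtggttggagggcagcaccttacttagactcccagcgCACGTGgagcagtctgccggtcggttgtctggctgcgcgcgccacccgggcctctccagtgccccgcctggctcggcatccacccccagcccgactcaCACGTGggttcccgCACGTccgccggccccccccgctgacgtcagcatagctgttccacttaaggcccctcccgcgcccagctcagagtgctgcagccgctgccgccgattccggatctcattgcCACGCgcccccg
PGK1: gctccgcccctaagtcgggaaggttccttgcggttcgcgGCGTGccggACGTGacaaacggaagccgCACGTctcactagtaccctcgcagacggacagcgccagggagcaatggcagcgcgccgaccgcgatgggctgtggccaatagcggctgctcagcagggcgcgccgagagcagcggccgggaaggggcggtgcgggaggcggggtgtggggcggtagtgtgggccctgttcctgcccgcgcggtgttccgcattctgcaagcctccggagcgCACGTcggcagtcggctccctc
Of these 6 genes, ALDOC, BNIP3, LDHA and PGK1 were higher in ΔNLS than in IL-33 clones, and HK2 was lower. ANKRD37 and HK2 were the 2 that fell against the control with either construct. A match shows only that the letters are there, and HIF binding was not measured.

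**Figure D5:**
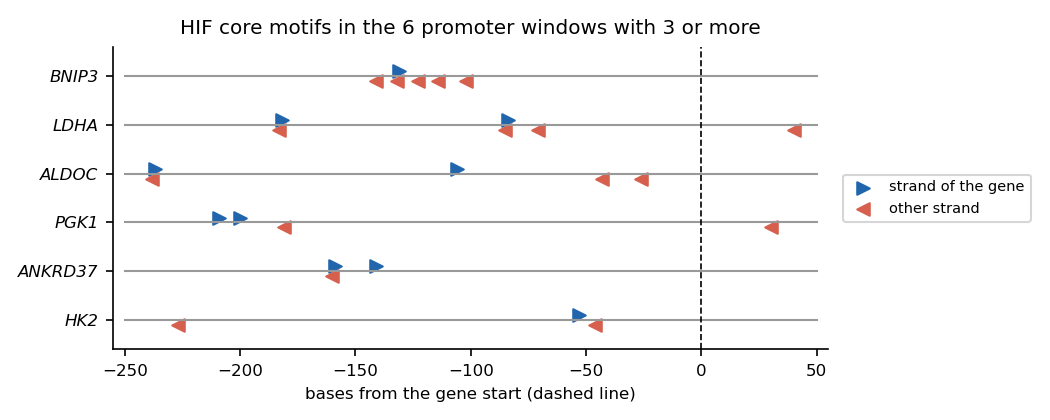
Positions of the HIF core in the 6 promoter windows that hold 3 or more, in bases from the gene start (dashed line). Blue marks cores on the strand of the gene and orange those on the other strand. BNIP3 and LDHA hold 6 each, ALDOC 5, PGK1 4, and ANKRD37 and HK2 3 each. A CACGTG, present in ALDOC, ANKRD37, BNIP3 and LDHA, counts once on each strand.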

How the data were processed

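Total RNA of U87 clones was measured on 6 Affymetrix PrimeView arrays. The authors deposited log2 levels, 1 per probe set and array, that they had already normalized. Partek 6.0 is named in the submitters' processing notes; how background was corrected and arrays were normalized is not given in the sources used here. Base 2 was inferred, because the highest value (14.16) exceeds what a scanner's largest reading gives as a natural log (11.09) or log10 (4.82). Arrays have no read depth, and their number limits the precision.

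Of 49395 probe sets, 44994 had 1 gene symbol in the platform annotation and were used, giving 18132 genes (1832 had several symbols and 2569 had none). The probe set with the highest mean stood for a gene. As background served 4.80, the level under which 95% of 341 olfactory receptor genes lay on average. All 6 arrays entered 1 fit with 3 group means in limma 3.58.1 (R 4.3.3; lmFit, and eBayes with a trend), with 3 residual and 2.81 prior degrees of freedom, and two-sided p-values were adjusted by Benjamini-Hochberg over every gene. The study's methods name a test for counts, which array values are not. Its threshold (2-fold, false discovery rate 0.01) was kept as an alternative. The script was tested on simulated data.

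The members and the further gene lists were chosen with earlier results of these data known. All members are named. Outside them the text names IL33, markers and, from each list and comparison, at most the 4 called genes with the smallest p. Lists are described by counts and medians, with no test. Alternatives tried were fitting the compared groups alone, each clone left out in turn, other variance models, normalizations, filters and probe set rules. Promoters came from a RefSeq table (GRCh38.p14), and figures were drawn with matplotlib 3.10.9.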

Additional observations from a re-analysis of the deposited data

Results flagged for a closer look

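For 8 members every ΔNLS clone lay on one side of the control and every IL-33 clone on the other, and the difference of the constructs passed the test. The share of all genes with this pattern was not counted, so whether it is more frequent in the set is not known. Of all genes, 16.1% were higher and 31.4% lower in ΔNLS than in IL-33 clones. ΔNLS minus IL-33 was 0.83 for GPI, 0.82 for PGK1, 0.48 for ENO1, 0.48 for LDHA, 0.45 for ALDOA and 0.37 for PFKL, with the ΔNLS clones above the control and the IL-33 clones below it. It was -1.29 for EPAS1 and -0.32 for EGLN3, with the ΔNLS clones below the control and the IL-33 clones above it, and EGLN3 was below background on all arrays. The probe sets of a gene did not all share this pattern. For PFKL, 2 of 3 probe sets had ΔNLS minus control below 0 (-0.52 and -0.04), and 1 had ΔNLS minus IL-33 at -0.11. For PGK1, 3 of 9 had ΔNLS minus control below 0, the lowest at -0.38, while ΔNLS minus IL-33 was above 0 for all 9. In all 8 members the construct and the array set cannot be told apart.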

How the results depend on the processing

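The counts of members called depended on the fit more than the differences did. Of the members lower in IL-33 clones against control, 12 in the fit reported, the number was 0 in a fit of only the compared groups, 0 with values below background set to it, 0 at a 2-fold change and an adjusted p under 0.01, and 0 to 14 with 1 clone left out. It was 0 without ΔNLS clone 3, ΔNLS clone 4 or IL-33 clone 9. In the fit of the compared groups and without either ΔNLS clone, 0 of all 18132 genes passed in that comparison (smallest adjusted p 0.0655 to 0.068), and without IL-33 clone 9, 149 rose and 192 fell, against 661 and 726. The number higher in that comparison was 1 with arrays centred by chromosome. Lower in ΔNLS clones against control were 2 with values below background set to it, 2 at the stricter threshold and 2 to 10 with 1 clone left out, and higher were 0 to 2 with 1 clone left out. Higher in ΔNLS than in IL-33 clones were 4 with values below background set to it, 4 at the stricter threshold and 1 to 15 with 1 clone left out, and lower was 1 at the stricter threshold. The cause was not tested. The median of the other HIF targets for IL-33 minus control was -0.92 with the mean of all probe sets. For ΔNLS minus control it was between -0.76 and -0.39 with a ΔNLS clone left out. CREBBP, a HIF coactivator, turned with the mean of all probe sets, to -0.10 for ΔNLS minus control and -0.20 for ΔNLS minus IL-33. With quantile normalization the share of higher calls among all genes was 50.1% in place of 38.6% for ΔNLS minus control and 49.3% in place of 33.9% for ΔNLS minus IL-33. No paired analysis was possible because the clone numbers name separate transfectants and tie no array of one construct to an array of the other.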
